A study of Danio rerio with 21 samples.

Results

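The genes described here are 44 zebrafish nucleolar and ribosome assembly factors, chosen by gene number from a list of named factors and found as 44 of the 26225 genes in the deposited table. The rule used no measured level, but the list was made with earlier results of these data known, so counts over it are descriptions. They were followed in RNA of whole zebrafish that had or had not been held at a raised temperature during the period of gonadal differentiation. All 44 had enough counts to be tested in each comparison, and the lowest of them, utp18, stayed between 0.347 and 3.85 CPM in the 21 libraries. CPM are counts scaled to the library size multiplied by the library's factor of TMM normalization. Where values were scaled by library size only, this is stated.

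Ribosomes are built in the nucleolus, where RNA polymerase I transcribes a long precursor RNA that is modified, folded and cut while ribosomal proteins bind to it. Small nucleolar ribonucleoproteins (snoRNPs) guide the modification, a large particle called the small subunit processome shapes the precursor of the small subunit, and a separate series of factors assembles the large subunit. Cells that grow and divide express these factors at high levels. Growing oocytes of fish carry many nucleoli and store ribosomes for the embryo.

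Fish of the AB strain, labelled as wild type, were reared at 28 °C and sampled as controls (C25D, C35D, C45D, C60D) at an age of 25, 35, 45 or 60 days post-fertilization (dpf). In the heat-treated groups, T35D, T45D and T60D, the water was at 35 °C for 10 days, from 25 to 35 dpf, and fish not sampled at 35 dpf were returned to 28 °C. Each of the 7 groups had 3 libraries, given here in the order of their replicate numbers, and the study's methods describe several fish per sampling and an extraction from ground tissue of the whole body. How many fish entered a library, and their sex, are not given in the sources used here.

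The expected counts of a library summed to between 11875436 and 16471158, so that 3 counts corresponded to between 0.182 and 0.253 CPM with library size only. The 10 most abundant genes held from 8.84% of the counts in T35D-2 to 40.4% in T45D-3. The factor of TMM normalization in T45D-3 was 0.491, the lowest of the 21. The summed level of 8 fast muscle markers there was 448763 CPM, a value raised by this low factor and not a share of the counts. In 5 libraries the label of whole fish was matched by neither liver nor eye markers, and in C35D-1 it was not matched by eye markers. The summed level of 9 liver markers was 5.40, 10.8 and 3.80 CPM in C60D, 6.28 CPM in T45D-3 and 7.84 CPM in T60D-2, against 1695 to 15298 CPM in the other 16 libraries. The 8 eye markers summed to between 1.69 and 4.10 CPM in the same 5 libraries, to 1.87 CPM in C35D-1 and to 23.5 CPM in T45D-1. In the remaining libraries they summed to between 77.3 and 2447 CPM. Of the 12 oocyte markers none was at 0 in T35D-2, T35D-3, T45D-2, T60D-2 and T60D-3, where they summed to 14353, 8331, 6440, 4394 and 5968 CPM. They summed to 7.49 CPM in T35D-1, 2.96 CPM in T45D-1, 10.6 CPM in T45D-3 and 5.45 CPM in T60D-1, with 1 to 4 of the 12 at 0. In C35D they summed to 286, 1007 and 39.6 CPM, and in the other 9 control libraries to between 2.02 and 9.84 CPM.

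Ribosome biogenesis factors stood at high levels in 5 of the 9 libraries of heat-treated fish. Summed over the 44 genes, the level was 987, 4238 and 4723 CPM in T35D, 1621, 3449 and 2238 CPM in T45D and 1435, 3328 and 4449 CPM in T60D. Among controls the sum was 1449 to 1606 CPM in C25D, 1141 to 1633 CPM in C35D, 1228 to 1235 CPM in C45D and 1023 to 1104 CPM in C60D. The 5 highest libraries were the 5 with the highest sums of oocyte markers, and the 13 proliferation markers summed to between 2196 and 3637 CPM in these 5 and to between 195 and 664 CPM in the other 16. The part of these markers in the levels of the factors was not tested. T45D-3 came next. Under TMM scaling its oocyte markers summed to 10.6 CPM, above C45D at 2.04, 5.17 and 3.86 CPM and below all of C35D. Its proliferation markers summed to 195 CPM, below C45D at 235, 278 and 255 CPM. Scaled by library size only, the 44 factors summed to 1099 CPM in T45D-3, below the C45D libraries at 1248, 1601 and 1437 CPM. The same 5 libraries were the highest, at 3338 CPM or more. In whole-body RNA, a difference in the number of cells of a type and a difference in RNA per cell cannot be told apart.

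**Figure D1:**
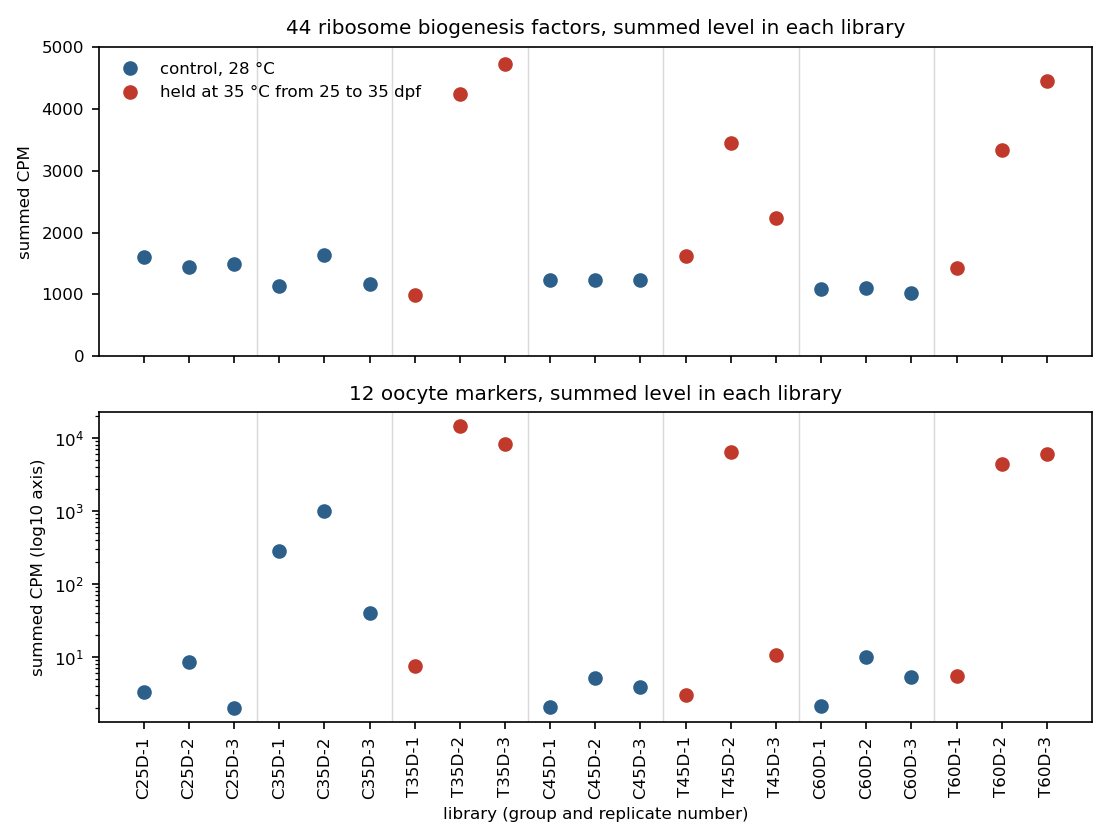
Summed level in CPM of the 44 ribosome biogenesis factors (upper panel, linear axis) and of 12 oocyte markers (lower panel, log10 axis) in each of the 21 libraries, with controls in blue and libraries of heat-treated fish in red. T35D-2, T35D-3, T45D-2, T60D-2 and T60D-3 lie above all controls in both panels. T45D-3 lies above all controls in the upper panel only, and there only under the TMM scaling drawn.

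To ask whether the factors differed between heat-treated and control fish, the 3 libraries of each heated group were compared with the 3 controls of the same age with the quasi-likelihood test of edgeR. Its p-values were adjusted over all genes by the Benjamini-Hochberg method, with a threshold of 0.05. No factor passed at 35, 45 or 60 dpf (0 of 44, with a background of 0% of all genes in each direction at each age), and the adjusted p of the 44 lay between 0.192 and 0.786, 0.213 and 0.737, and 0.144 and 0.682. The fold changes lay mostly on one side. They were above 0 for 43, 44 and 44 of the 44 factors, with a median log2 fold change of 1.42, 1.19 and 1.52, while the median over all genes tested was 0.27, 0.12 and -0.02. With counts scaled by library size only, 40 of 44 were above 0 at 45 dpf, where the median of all genes was -0.43 and that of the factors 0.83. The share of all genes above 0 was not counted. The factors moved together between libraries, so these counts are not 44 separate results. T35D-1, for example, lay below all 3 C35D libraries for 32 of the 44 (31.8% of all genes).

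Without adjustment, 20 factors had a p of 0.05 or less at 35 dpf, all with a higher level in T35D, where 15.8% of all genes did so. At 45 dpf there were 26 of 44 against a background of 5.26%, and at 60 dpf 36 of 44 against 16.1%. At 60 dpf liver and eye markers were near 0 in all of C60D and in T60D-2. In T60D-1 and T60D-3 the liver markers summed to 12785 and 9997 CPM. Heated and control libraries thus also differed in organ markers at that age, and the part of this difference in the counts was not tested. None of the 44 was lower at an unadjusted p of 0.05 or less at any of the 3 ages, where the background was 8.33%, 10.5% and 9.53%. DESeq2 called 1, 7 and 22 factors higher and 0 lower, with 4.06%, 0.611% and 9.76% of all genes called higher and 2.39%, 2.01% and 2.48% lower. Here and below, DESeq2 shares are over all genes with any count (25867, 25879 and 25726 at these ages), also those it gave no adjusted p. The edgeR shares are over the filtered genes (20208, 20125 and 18653), so the 2 kinds of share have unlike bases. The factor called at 35 dpf was mphosph10, and those at 45 dpf were gnl2, mybbp1a, noc2l, pes, rrp1, rrp12 and utp4. With library size as the only scaling, the counts at 35 and 45 dpf fell to 4 (8.45% of all genes) and 1 (0.507%), so that at 35 dpf the share of the factors was near that of all genes. At 60 dpf the count was then 37 (19.3%). The count of 20 at 35 dpf became 0 without C35D-1 (3.48% of all genes), 6 without C35D-2 (11.3%), 0 without C35D-3 (2.69%), 1 without T35D-2 (5.54%), 0 without T35D-3 (8.18%) and 38 without T35D-1 (24.8%). That of 26 at 45 dpf became 14 without C45D-1 (1.65%), 9 without C45D-2 (1.03%) and 9 without C45D-3 (0.963%). It became 38 without T45D-1 (12.5%), 24 without T45D-2 (10.3%) and 33 without T45D-3 (14.1%). That of 36 at 60 dpf became 26 without C60D-1 (11.8%), 24 without C60D-2 (11.9%) and 19 without C60D-3 (8.12%). It became 42 without T60D-1 (25.3%), 31 without T60D-2 (16.9%) and 29 without T60D-3 (9.97%).

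**Figure D2:**
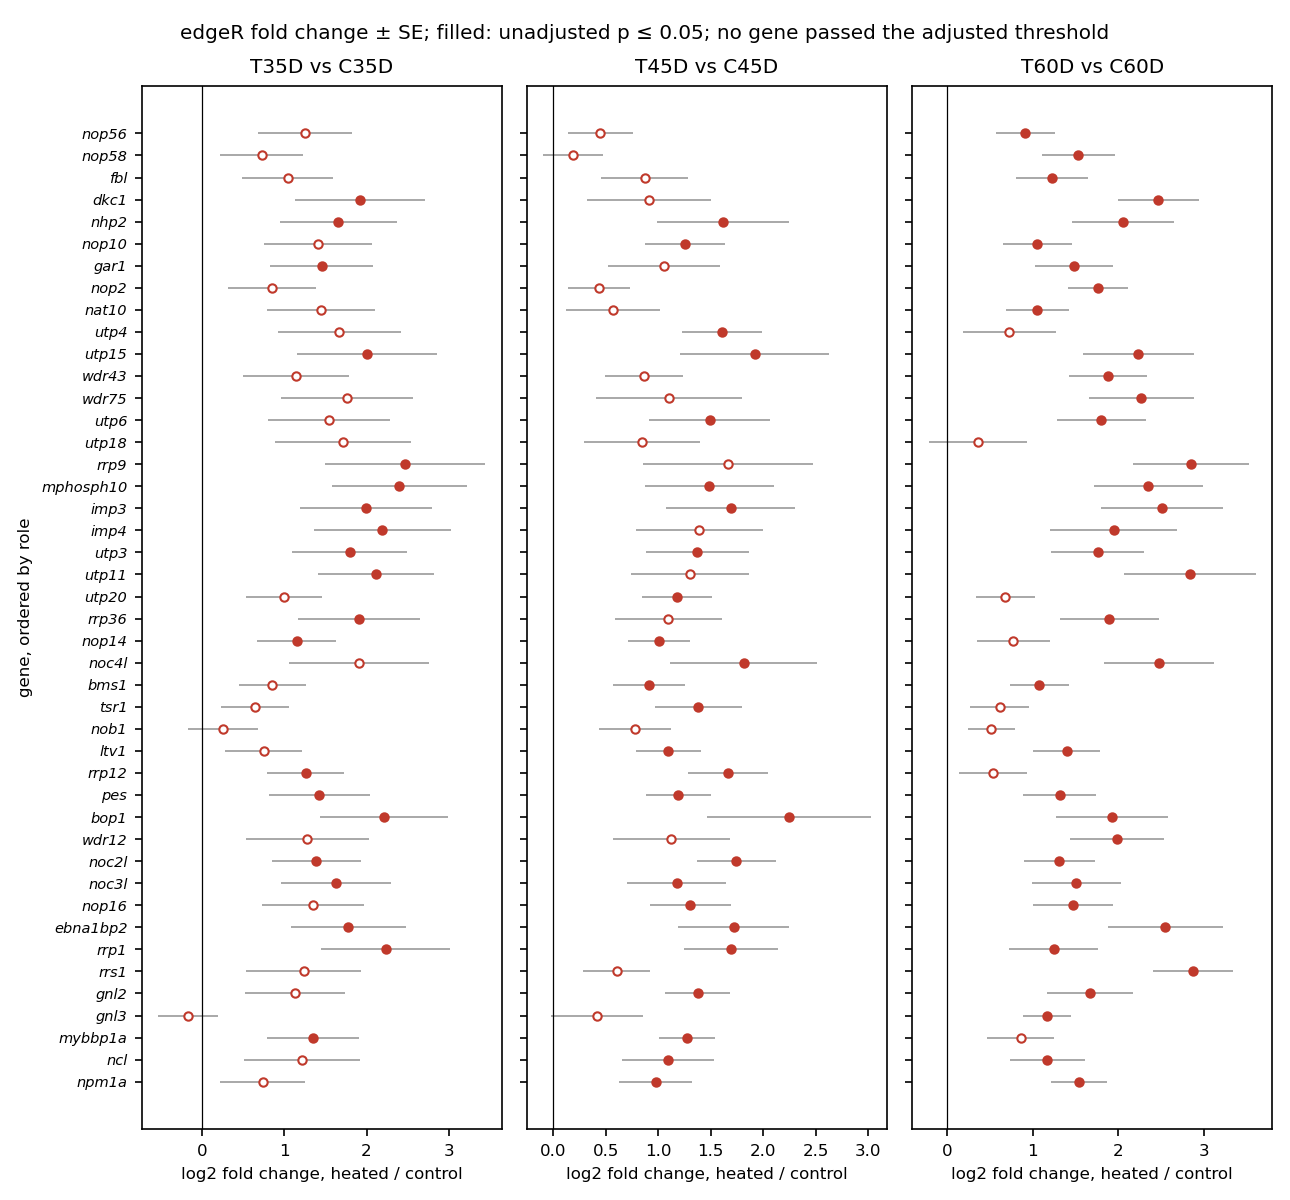
Log2 fold change between heat-treated and control fish with its standard error (edgeR, 3 libraries against 3) for each of the 44 factors at 35, 45 and 60 dpf. Filled points have an unadjusted p of 0.05 or less (20, 26 and 36 of 44), and the single point below 0 is gnl3 at 35 dpf.

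The spread between libraries of a heated group was wide. The coefficient of variation over 3 libraries had a median over the 44 factors of 8.65% in C25D, 20.6% in C35D, 7.88% in C45D and 13.7% in C60D, and of 70.5%, 50.2% and 57.4% in T35D, T45D and T60D. Under TMM scaling the library numbered 1 was the low one in each heated group, although the labels do not link the groups by replicate number. T35D-1 was the lowest of its group for 43 of 44 factors (39.2% of all genes), T45D-1 for 38 (27.3%) and T60D-1 for 43 (38.8%). With library size only, T35D-1 and T60D-1 were again the lowest for 43 factors each, but at 45 dpf T45D-3 was the lowest for 33 (70.0% of all genes) and T45D-1 for 10.

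Taken singly, T35D-1 lay above all 3 controls for 2 factors (31.8% of all genes did) and below all 3 for 32 (31.8%). With library size only it lay below all 3 for 22 (29.7%). T35D-2 lay above all 3 controls for 43 factors (47.6%) and T35D-3 for 44 (42.3%). At 45 dpf the counts were 31 in T45D-1 (29.2%), 43 in T45D-2 (38.8%) and 40 in T45D-3 (33.0%), and at 60 dpf they were 27 (27.6%), 43 (35.7%) and 44 (43.1%) in the T60D libraries. The median log2 ratio to the mean of the controls was -0.44, 1.92 and 1.90 in T35D, 0.33, 1.70 and 0.79 in T45D and 0.32, 1.70 and 2.22 in T60D. With library size as the only scaling, the median was -0.38 in T45D-3 and -0.12 in T45D-1, where all genes had medians of -1.25 and -0.52, so the position of these 2 libraries above C45D depends on the normalization.

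All 3 heated libraries lay above all 3 controls for 2 factors at 35 dpf (bms1 and rrp12, against 10.1% of all genes), for 30 at 45 dpf (6.83%) and for 27 at 60 dpf (11.8%). With library size only, these counts were 0 (4.29%), 5 (0.845%) and 27 (13.9%). The 5 were noc2l, rrp1, rrp12, tsr1 and utp4, and at 60 dpf 25 factors were in both sets. The positions of single libraries given below are those under TMM scaling. When T35D-1 was left out, edgeR called 35 of the 44 higher (18.9% of all genes) and 0 lower (12.9%); those not called were bms1, gnl3, ltv1, nob1, nop2, nop58, npm1a, tsr1 and wdr43. When T60D-1 was left out, 39 were called higher (20.0%) and 0 lower (12.1%), and the 5 others were nob1, rrp12, tsr1, utp18 and utp20. Without T45D-2, the only T45D library with high oocyte markers, 5 were called higher (1.19%) and 0 lower (6.79%), namely gnl2, mybbp1a, pes, rrp12 and utp4, and the median log2 fold change of the 44 was 0.63. This fit used TMM scaling, and the position of T45D-1 and T45D-3 above C45D depends on it. With library size only, rrp12 and utp4 lay above C45D in all 3 T45D libraries, but gnl2, mybbp1a and pes did not. In these 3 fits, 2 heated libraries were set against 3 controls. T35D-1 and T60D-1 were each the lowest of their group for 43 factors (39.2% and 38.8% of all genes). The counts without them are therefore not independent of the levels of the factors. At each of the 3 ages, leaving out any other single library gave 0 calls among the 44. Without T60D-2, edgeR called 408 of 19927 genes higher and 16 lower, and in the other such fits it called no gene. One fit of all 21 libraries called 20 factors higher at 60 dpf (8.68%) and 0 lower (5.37%), and 0 at 35 and 45 dpf.

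**Figure D3:**
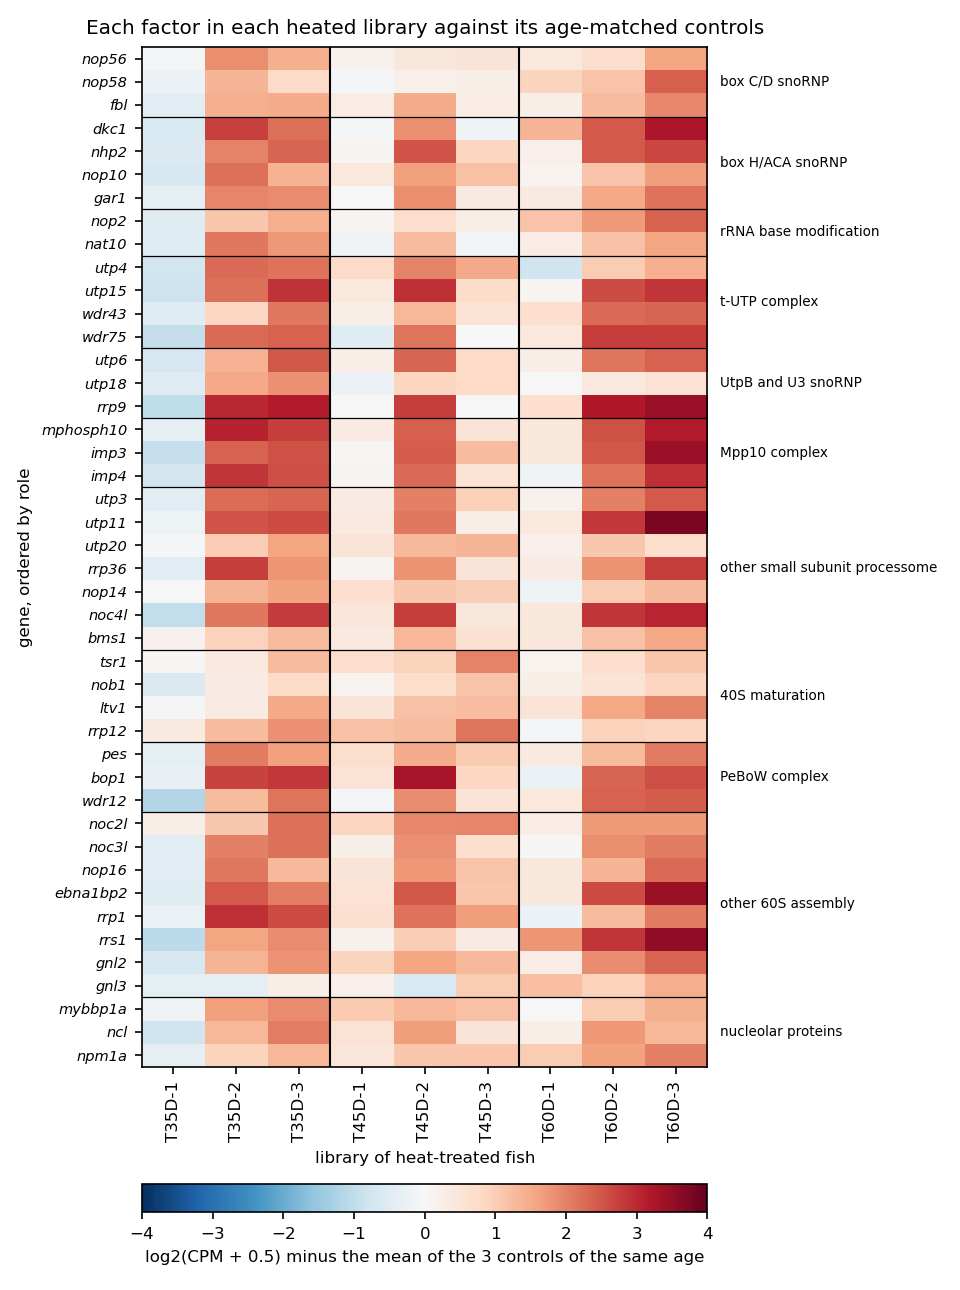
Log2 of CPM + 0.5 minus the mean of the 3 controls of the same age, for each of the 44 factors (rows, grouped by role) in the 9 libraries of heat-treated fish (columns), with red above and blue below the controls. T35D-1 is pale or blue, T35D-2, T35D-3, T45D-2, T60D-2 and T60D-3 are red in nearly every row, and T45D-3 is strongest among the 40S maturation rows.

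By role, the median log2 fold change at 35, 45 and 60 dpf was 2.19, 1.49 and 2.35 for the Mpp10 complex, 1.71, 1.49 and 1.80 for the UtpB and U3 proteins, 1.71, 1.36 and 2.06 for the t-UTP complex and 1.80, 1.18 and 1.76 for the other factors of the small subunit processome. For box H/ACA snoRNP proteins it was 1.56, 1.16 and 1.77, and for the PeBoW complex 1.43, 1.19 and 1.93. The other large subunit factors had 1.37, 1.34 and 1.49, and the nucleolar proteins 1.22, 1.10 and 1.17. The box C/D snoRNP proteins had 1.04, 0.45 and 1.22, the base modification enzymes 1.15, 0.50 and 1.41, and the 40S maturation factors 0.70, 1.24 and 0.57. Roles hold 2 to 8 genes, and differences between roles were not tested.

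Per unit of length, the most abundant of the 44 in control fish were npm1a, ncl and nop56, with mean FPKM values (fragment counts scaled to gene length and to the mapped reads of the library) in C25D of 114 ± 3.28, 101 ± 11.4 and 82.5 ± 0.701 (SD, n = 3). The lowest was utp18, with 2.17 ± 0.519 FPKM in C25D. Across the 7 groups utp18 had the lowest FPKM of the 44 in every one, followed by utp20.

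Box C/D snoRNPs methylate ribose groups of the precursor RNA. Fibrillarin, encoded by fbl, is their methyltransferase, and Nop56 and Nop58 are core proteins of the particle. The level of nop56 was at 105, 412 and 301 CPM in T35D, at 137, 166 and 175 CPM in T45D and at 131, 157 and 292 CPM in T60D, with the 12 control libraries from 92.4 to 146 CPM (median 118). All 3 libraries lay above the controls of their age at 45 and 60 dpf and not at 35 dpf. The log2 fold changes of nop56 at 35, 45 and 60 dpf were 1.25 ± 0.57, 0.45 ± 0.31 and 0.91 ± 0.35. Here and below, ± after a log2 fold change is its standard error (SE), derived from the fold change and its F statistic. For nop58 the libraries stood at 60.6, 184 and 123 CPM in T35D, at 76.5, 91.6 and 92.5 CPM in T45D and at 87, 102 and 246 CPM in T60D, and the controls from 40.5 to 96.1 CPM (median 75.1). T45D-1 lay within the C45D range of 75.4 to 85.3 CPM. Of all 44 factors nop58 had the largest p at 45 dpf, with a log2 fold change of 0.19 ± 0.28 (edgeR, adjusted p = 0.737). At 60 dpf, where C60D stood at 40.5, 54.7 and 45.7 CPM, it was 1.53 ± 0.42. The fbl transcript was measured at 30.8, 117 and 120 CPM in T35D, at 48.4, 110 and 48.9 CPM in T45D and at 42.3, 84.9 and 133 CPM in T60D, against from 29.1 to 53.4 CPM (median 43.4) in controls. T45D-2 was far above the other T45D libraries.

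Box H/ACA snoRNPs convert uridines of the precursor into pseudouridine. Dyskerin, the product of dkc1, is the catalytic subunit, and Gar1, Nhp2 and Nop10 are its partners. Levels of dkc1 stood at 37, 378 and 261 CPM in T35D, at 54.1, 206 and 52 CPM in T45D and at 62.7, 134 and 231 CPM in T60D. Controls were at 50, 82.6 and 44.3 CPM in C35D, 57.2, 60.3 and 55.3 CPM in C45D and 22.4, 28.7 and 21.4 CPM in C60D. Thus T45D-1 and T45D-3 lay below all of C45D, and all of T60D lay above C60D. The log2 fold changes at 35, 45 and 60 dpf were 1.92 ± 0.79, 0.91 ± 0.59 and 2.47 ± 0.47, and the p at 60 dpf was the second smallest of the 44 (edgeR, adjusted p = 0.145). The gar1 transcript was found at 14.1, 72.8 and 69 CPM in T35D, at 16.2, 58.6 and 20.6 CPM in T45D and at 19.2, 44.4 and 69.1 CPM in T60D, with controls from 12.6 to 25 CPM (median 16.2). Here the 5 libraries with high oocyte markers stood at 44.4 CPM or more and the other 4 at 20.6 CPM or less. The libraries of nhp2 and nop10 divided in the same way, from 66.2 to 83.5 CPM against 10.7 to 25.3 CPM for nhp2 and from 35.7 to 75.1 CPM against 10.1 to 27.4 CPM for nop10.

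Among the enzymes that modify bases, Nop2 methylates a cytosine of large subunit RNA and Nat10 acetylates cytosines of small subunit RNA. For nop2 the values were at 18.2, 55.1 and 71.6 CPM in T35D, at 32.4, 48.8 and 35.6 CPM in T45D and at 36.9, 54.5 and 86.4 CPM in T60D. C60D stood at 16.5, 17.6 and 15.7 CPM and the other controls between 22.6 and 34.2 CPM. All T60D libraries lay above all 12 controls, T60D-1 by the least. Log2 fold changes at 35, 45 and 60 dpf were 0.85 ± 0.54, 0.43 ± 0.29 and 1.76 ± 0.35, and the p at 60 dpf was the third smallest (edgeR, adjusted p = 0.145). Transcripts of nat10 were counted at 13.9, 86.3 and 66.8 CPM in T35D, at 17.9, 47.9 and 18.4 CPM in T45D and at 23.3, 42.8 and 57.9 CPM in T60D, with controls from 15.5 to 27.6 CPM (median 20.2). T45D-1 and T45D-3 lay below all 3 C45D libraries, and T45D-2 stood at more than all 12 controls. At 45 dpf its log2 fold change was 0.57 ± 0.45 (edgeR, adjusted p = 0.519), among the 3 largest p of that age.

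The t-UTP complex binds the precursor RNA first, and in human cells it is also needed for full transcription by RNA polymerase I. Of its 4 measured members, utp15 stood at 6.45, 56.7 and 90.7 CPM in T35D, at 12.7, 72.4 and 15.6 CPM in T45D and at 11, 65.5 and 77.7 CPM in T60D, against from 8.31 to 19.1 CPM (median 10.3) in controls. Again the 5 high libraries, at 56.7 CPM or more, were far from the other 4, at 15.6 CPM or less. Its log2 fold changes at 35, 45 and 60 dpf were 2.00 ± 0.85, 1.92 ± 0.71 and 2.23 ± 0.65. Counts of wdr43 corresponded to values at 42, 104 and 253 CPM in T35D, at 77.3, 161 and 94.6 CPM in T45D and at 49.9, 151 and 160 CPM in T60D, and C60D had 32.8, 32.4 and 28.6 CPM. In C35D and C45D it stood between 52.0 and 73.5 CPM, so T60D-1 was above C60D and below the younger controls. Its log2 fold change at 60 dpf was 1.88 ± 0.45. The gene utp4, mutated in a childhood cirrhosis in humans, was measured at 7.97, 66.7 and 62.4 CPM in T35D, at 20.1, 47.2 and 34.4 CPM in T45D and at 13.4, 48.3 and 66.5 CPM in T60D. T60D-1 was below all of C60D, which stood at 20.3, 30 and 22.5 CPM, the highest of the control groups. The log2 fold change of utp4 was 1.60 ± 0.38 at 45 dpf (edgeR, adjusted p = 0.213) and 0.73 ± 0.54 at 60 dpf (adjusted p = 0.395). For wdr75 the heated libraries ranged from 11.9 to 124 CPM and the controls from 10.8 to 33.1 CPM (median 21.9).

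UtpB is a scaffold of the processome, and Rrp9 is a protein specific to the U3 snoRNP, which base-pairs with the precursor. The UtpB gene utp18 was found at 0.347, 2.99 and 3.85 CPM in T35D, at 0.628, 1.9 and 1.77 CPM in T45D and at 1.06, 1.57 and 1.87 CPM in T60D, with controls from 0.634 to 1.75 CPM (median 0.757). These are the lowest values of the 44, and T60D overlapped with C60D. It had the largest p of the 44 at 60 dpf, with a log2 fold change of 0.36 ± 0.58 (edgeR, adjusted p = 0.682). The U3 protein gene rrp9 was at the other end. Its libraries stood at 4.99, 90.4 and 101 CPM in T35D, at 10.1, 70.2 and 9.83 CPM in T45D and at 11.6, 69.1 and 82 CPM in T60D, and the controls from 6.41 to 18.6 CPM (median 9.22). The 5 high libraries were at 69.1 CPM or more and the other 4 at 11.6 CPM or less. Log2 fold changes of rrp9 at 35, 45 and 60 dpf were 2.47 ± 0.97, 1.67 ± 0.81 and 2.85 ± 0.67. The remaining UtpB gene, utp6, ranged from 7.21 to 72.8 CPM in the heated libraries and from 8.23 to 15.7 CPM (median 12.5) in controls.

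Mpp10, Imp3 and Imp4 form a complex that holds the U3 RNA on the precursor. The gene for Mpp10, mphosph10, was measured at 10.4, 121 and 97.8 CPM in T35D, at 17, 72.3 and 19 CPM in T45D and at 17.7, 77.7 and 119 CPM in T60D. Its controls ran from 10.3 to 19.8 CPM (median 13.6). T35D-1 was among the lowest libraries, while T35D-2 and T35D-3 were above all 12 controls. Fold changes on the log2 scale at 35, 45 and 60 dpf were 2.40 ± 0.82, 1.49 ± 0.61 and 2.35 ± 0.63, and at 35 dpf its p was the second smallest of the 44 (edgeR, adjusted p = 0.192). The level of imp3 was at 3.6, 39.1 and 45.2 CPM in T35D, at 5.38, 29.9 and 13.1 CPM in T45D and at 7.29, 31.1 and 60.9 CPM in T60D, with controls from 3.9 to 7.77 CPM (median 5.16). T45D-3, at 13.1 CPM, lay between the controls and the high libraries. The log2 fold changes of imp3 at 35, 45 and 60 dpf were 1.99 ± 0.80, 1.69 ± 0.62 and 2.52 ± 0.71. For imp4 the high libraries stood between 48.5 and 90.2 CPM and the other 4 heated libraries between 6.17 and 14.7 CPM.

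**Figure D4:**
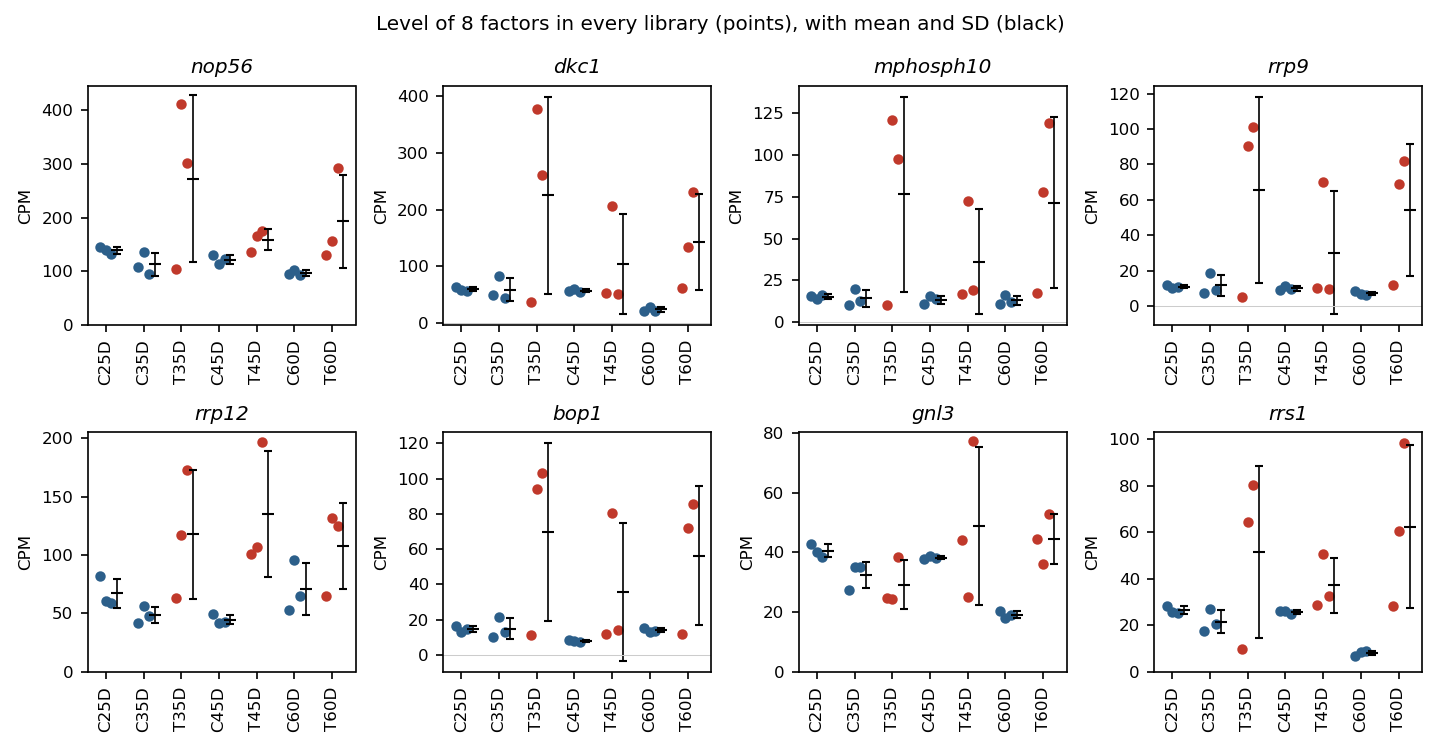
Level in CPM of nop56, dkc1, mphosph10, rrp9, rrp12, bop1, gnl3 and rrs1 in each library (points; controls blue, heat-treated red) of the 7 groups, with mean and SD over 3 libraries in black. Most panels show 1 low and 2 high libraries in T35D and T60D, gnl3 is highest in T45D-3, and dkc1, gnl3 and rrs1 are low in C60D.

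A further 7 genes belong to the small subunit processome. The GTPase gene bms1 stood at 20.5, 35.2 and 45 CPM in T35D, at 21.1, 40.2 and 24.4 CPM in T45D and at 21.2, 34.8 and 45.4 CPM in T60D. Its controls ran from 14.2 to 26.8 CPM (median 16.7), and each heated library exceeded all 3 controls of its age at 35, 45 and 60 dpf. It was the only factor of the 44 for which this held at all 3 ages under TMM scaling. The share of all genes for which this held was not counted. With library size only, this did not hold for bms1 at 35 or 45 dpf. At 35 dpf T35D-1, at 20.5 CPM, was close to C35D at 14.9, 20.1 and 20 CPM. Log2 fold changes of bms1, 0.86 ± 0.41 at 35 dpf, 0.91 ± 0.34 at 45 dpf and 1.08 ± 0.34 at 60 dpf, were below the median of the 44. The product of utp20 is a very large scaffold of helical repeats. Its transcript was measured at 20.2, 42.4 and 63.4 CPM in T35D, at 24.5, 42.8 and 44.5 CPM in T45D and at 22.9, 43.3 and 33.2 CPM in T60D, with controls from 16 to 26.2 CPM (median 21). T45D-3 and T45D-2 were close together, and the log2 fold changes at 35, 45 and 60 dpf were 1.00 ± 0.46, 1.18 ± 0.33 and 0.68 ± 0.34. The gene utp11 had the smallest p of the 44 at 35 dpf, with a log2 fold change of 2.12 ± 0.70 (edgeR, adjusted p = 0.192). Its libraries were at 7.28, 50.2 and 53.9 CPM in T35D, at 10.1, 33.8 and 9.15 CPM in T45D and at 7.71, 43.4 and 82.3 CPM in T60D, and C35D had 7.69, 10.3 and 7.36 CPM, so T35D-1 lay just below C35D. Fold changes of utp3, rrp36, nop14 and noc4l lay between 0.77 (nop14 at 60 dpf) and 2.48 (noc4l at 60 dpf).

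Several factors act late on the small subunit. Nob1 is the endonuclease that makes the final cut at the end of the small subunit RNA, and Ltv1, Tsr1 and Rrp12 bind late precursors of the subunit. The level of nob1 was at 15.7, 30.3 and 40.6 CPM in T35D, at 29.8, 44.1 and 59.5 CPM in T45D and at 39.7, 49.7 and 61.5 CPM in T60D, against from 22.4 to 35.8 CPM (median 26.7) in controls. T35D-2 lay within the range of the 12 controls and T35D-3 above it. At 35 dpf its log2 fold change was 0.26 ± 0.42, the second largest p (edgeR, adjusted p = 0.708). Transcripts of ltv1 were at 21.4, 28.4 and 64.5 CPM in T35D, at 29.2, 46.2 and 48.2 CPM in T45D and at 26.7, 55.4 and 74.8 CPM in T60D, with controls from 18 to 28.3 CPM (median 20.7). Its log2 fold changes at 35, 45 and 60 dpf were 0.75 ± 0.47, 1.10 ± 0.31 and 1.40 ± 0.39. The gene rrp12 stood at 62.7, 117 and 173 CPM in T35D, at 101, 107 and 197 CPM in T45D and at 65.1, 132 and 125 CPM in T60D. C35D had 42, 56.1 and 47.5 CPM, C45D 49.2, 42.1 and 42.7 CPM and C60D 52.8, 96 and 64.7 CPM. All of T35D and T45D lay above their controls under TMM scaling (T45D also with library size only, T35D not), and T60D-1 lay within C60D. Log2 fold changes of rrp12 at 35, 45 and 60 dpf were 1.26 ± 0.46, 1.66 ± 0.38 and 0.53 ± 0.40, with adjusted p of 0.192, 0.213 and 0.396 (edgeR). For tsr1, T45D stood at 33.5, 38.7 and 81.8 CPM and C45D at 20.3, 18.7 and 22.7 CPM.

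Under TMM scaling all 4 late factors were higher in T45D-3 than in T45D-2. This was the case for 10 of the 44, against 42.8% of all genes, and the other 6 were nop56, nop58, utp20, noc2l, gnl3 and npm1a. With library size only, gnl3 alone was higher in T45D-3 (21.5% of all genes), and all 4 late factors were lower there than in T45D-2. The median log2 ratio to C45D of the 40S maturation factors was 1.61 in T45D-3 and 1.04 in T45D-2 under TMM scaling, and 0.39 and 0.95 with library size only. Under TMM scaling it was 0.57 and 2.40 for the Mpp10 complex and 0.78 and 2.32 for the UtpB and U3 proteins. T45D-3 is the library with the lowest TMM factor and near-absent liver and eye markers. A change of scaling shifts all its ratios by nearly the same amount, so the order of the roles within it stays, while its order against T45D-2 does not.

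**Figure D5:**
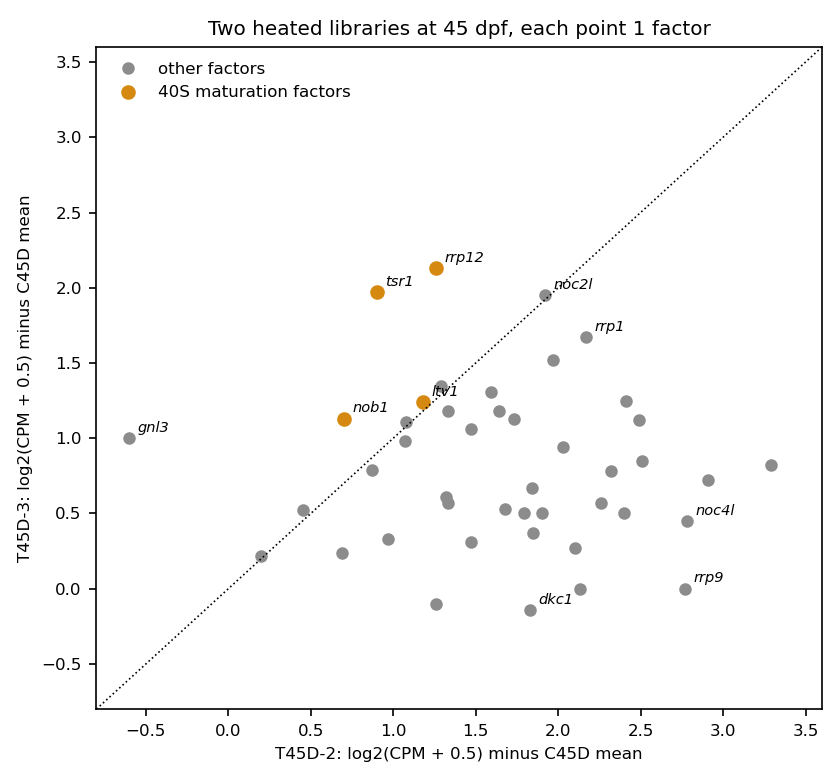
Log2 of CPM + 0.5 minus the C45D mean in T45D-2 (horizontal) and in T45D-3 (vertical), both under TMM scaling, for each of the 44 factors, with 40S maturation factors in orange and the line of equality dotted. Of the 44 points 10 lie above the line, among them all 4 orange points, and gnl3 is the only factor below 0 in T45D-2. With library size only, gnl3 alone would lie above the line.

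Pes, Bop1 and Wdr12 form the PeBoW complex, needed for processing of large subunit RNA. The gene bop1 was measured at 11.4, 94 and 103 CPM in T35D, at 12, 80.6 and 14.2 CPM in T45D and at 11.7, 71.9 and 85.3 CPM in T60D. C45D stood at 8.45, 8.08 and 7 CPM, the lowest of the control groups, and C35D and C60D between 10.2 and 21.4 CPM. The 5 high libraries were at 71.9 CPM or more and the other 4 at 14.2 CPM or less. Log2 fold changes of bop1 at 35, 45 and 60 dpf were 2.21 ± 0.78, 2.25 ± 0.78 and 1.93 ± 0.65. For pes, known in zebrafish from the mutant pescadillo, values were at 22.7, 124 and 91.7 CPM in T35D, at 42, 71.8 and 53.8 CPM in T45D and at 35.7, 66.9 and 119 CPM in T60D, with controls from 23.1 to 37.9 CPM (median 29). Both T45D and T60D lay wholly above their controls, and the log2 fold changes at 35, 45 and 60 dpf were 1.43 ± 0.61, 1.19 ± 0.31 and 1.32 ± 0.43. The wdr12 transcript was found at 4.09, 24 and 44.9 CPM in T35D, at 7.72, 31.9 and 11.7 CPM in T45D and at 9.41, 37.6 and 39.3 CPM in T60D, and its controls ran from 6.53 to 11.8 CPM (median 8.85). T35D-1 was below all 12 controls. At 35, 45 and 60 dpf wdr12 differed by 1.28 ± 0.75, 1.12 ± 0.56 and 1.99 ± 0.55 on the log2 scale.

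The other 8 large subunit factors were less uniform. Noc2l and Noc3l are partners in the export of pre-60S particles from the nucleolus, and Rrs1 helps to bring the small ribonucleoprotein of the large subunit into the particle. Levels of noc2l were at 26.5, 47.6 and 104 CPM in T35D, at 31, 65.2 and 66.9 CPM in T45D and at 27.2, 73.4 and 72.6 CPM in T60D, with controls from 16.1 to 29.8 CPM (median 21.4). T45D-3 again stood close to T45D-2. The log2 fold change of 1.75 ± 0.38 at 45 dpf had the second smallest p of that age (edgeR, adjusted p = 0.213). The noc3l transcript was counted at 9.57, 54.1 and 61.4 CPM in T35D, at 14.9, 46.4 and 20.3 CPM in T45D and at 16.6, 59.4 and 69.7 CPM in T60D, against from 9.86 to 19.5 CPM (median 13.2). For noc3l the log2 fold changes at 35, 45 and 60 dpf were 1.63 ± 0.67, 1.18 ± 0.47 and 1.51 ± 0.52. The gene rrs1 stood at 9.91, 64.5 and 80.3 CPM in T35D, at 28.6, 50.6 and 32.4 CPM in T45D and at 28.3, 60.6 and 98.3 CPM in T60D. C60D had 6.87, 8.38 and 8.78 CPM and the 9 younger controls 17.5 to 28.3 CPM. T60D-1, at 28.3 CPM, was thus above C60D and equal to the highest younger control. Log2 fold changes of rrs1 at 35, 45 and 60 dpf were 1.24 ± 0.70, 0.61 ± 0.32 and 2.87 ± 0.47, and at 60 dpf its p was the smallest of the 44 (edgeR, adjusted p = 0.144).

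The GTPases Gnl2 and Gnl3 act on the large subunit precursor, and Gnl3 is also known as nucleostemin for its level in stem cells. The gene gnl2 was at 13.9, 57 and 78.3 CPM in T35D, at 34.2, 55.3 and 45.6 CPM in T45D and at 19.1, 59.4 and 80 CPM in T60D, with controls from 12.9 to 27.8 CPM (median 19.6). Its log2 fold changes at 35, 45 and 60 dpf were 1.13 ± 0.61, 1.38 ± 0.31 and 1.67 ± 0.50, and the p at 45 dpf was the third smallest (edgeR, adjusted p = 0.213). For gnl3 the pattern differed. It stood at 24.7, 24.3 and 38.6 CPM in T35D, at 44.1, 25.1 and 77.3 CPM in T45D and at 44.4, 36.3 and 52.9 CPM in T60D. C35D had 27.3, 35.1 and 35 CPM, C45D 37.8, 38.9 and 38.2 CPM and C60D 20.3, 18 and 19.1 CPM. T35D-2 and T45D-2, among the highest libraries for most factors, were below all 3 controls of their age for gnl3. Its log2 fold change of -0.17 ± 0.36 at 35 dpf was the only one below 0 among the 44 (edgeR, adjusted p = 0.786). At 45 and 60 dpf it was 0.42 ± 0.44 and 1.17 ± 0.28. Of the remaining 3 genes, rrp1 had the third smallest p at 35 dpf, with a log2 fold change of 2.23 ± 0.78 (edgeR, adjusted p = 0.192). T35D stood at 14.1, 136 and 108 CPM for rrp1 and C35D at 12.7, 25.6 and 16 CPM. The highest heated library reached 183 CPM for ebna1bp2 and 60.9 CPM for nop16, against control maxima of 27.4 and 15.0 CPM.

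Nucleolin (ncl) and nucleophosmin (npm1a) are abundant nucleolar proteins, and Mybbp1a binds nucleolar RNA and the factor Myb. Values of mybbp1a were at 26.4, 92.2 and 110 CPM in T35D, at 52.9, 64 and 57.6 CPM in T45D and at 41.1, 86.3 and 114 CPM in T60D, with controls from 23.1 to 47.7 CPM (median 33.8). Under TMM scaling the 3 T45D libraries lay close together and above all 12 controls. The log2 fold change of 1.27 ± 0.27 had the smallest p at 45 dpf (edgeR, adjusted p = 0.213). With library size only, T45D stood at 44.3, 69.3 and 28.3 CPM for mybbp1a and no longer lay wholly above C45D. The coefficient of variation of mybbp1a in T45D, 9.54% under TMM scaling, was the lowest of the 44 in that group. At 60 dpf, with C60D at 37.7, 47.7 and 41 CPM, the log2 fold change was 0.86 ± 0.39. The ncl transcript stood at 100, 441 and 727 CPM in T35D, at 230, 498 and 224 CPM in T45D and at 150, 423 and 318 CPM in T60D, against from 106 to 240 CPM (median 154) in controls. T35D-3 held the highest level of ncl in the series. The log2 fold changes of ncl at 35, 45 and 60 dpf were 1.22 ± 0.71, 1.10 ± 0.44 and 1.17 ± 0.43. For npm1a values were at 91, 216 and 294 CPM in T35D, at 162, 247 and 252 CPM in T45D and at 142, 215 and 283 CPM in T60D, with controls from 66.5 to 152 CPM (median 118). Its T45D and T60D libraries lay above the controls of their age. At 35 dpf npm1a differed by 0.74 ± 0.52 on the log2 scale, the third largest p (edgeR, adjusted p = 0.384), and by 0.98 ± 0.35 and 1.54 ± 0.33 at 45 and 60 dpf.

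Control fish of successive ages were compared next. Between C25D and C35D edgeR called 0 of the 44 (0.181% of all genes were called higher and 0.0538% lower), with imp3 the smallest p (log2 fold change 0.73 ± 0.19, adjusted p = 0.0937). Without adjustment, 3 factors had a p of 0.05 or less there (imp3 higher, nop14 and utp20 lower, with 13.6% of all genes higher and 12.7% lower), and DESeq2 called 1, imp3, as higher (4.77% of all genes higher and 5.63% lower). Without C35D-2, which had the highest oocyte marker sum of the controls, edgeR called ncl lower and no other (8.14% of all genes lower and 7.48% higher), and without adjustment 18 factors were lower and 1 higher (18.8% and 17.5% of all genes). Between C35D and C45D edgeR again called 0 (1.50% higher and 3.55% lower over all genes), while 9 factors were lower and 0 higher at an unadjusted p of 0.05 or less (13.7% and 9.69% of all genes). The 9 became 0 with library size only (7.35%), 14 without C35D-1 (13.1%), 4 without C45D-2 (10.9%) and 4 without C45D-3 (8.63%). DESeq2 called bop1 and ebna1bp2 lower there, with 6.52% of all genes lower and 4.22% higher.

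Between C45D and C60D, 3 factors rose and 8 fell (edgeR without a replicate block, adjusted p of 0.05 or less), where 10.0% of all genes rose and 18.2% fell. The shares of the factors are thus near those of all genes. The factor that fell most was rrs1, from 25.9, 26.1 and 24.7 CPM to 6.87, 8.38 and 8.78 CPM, a log2 fold change of -1.68 ± 0.16 (adjusted p = 0.000998). Next were dkc1 with -1.25 ± 0.16, wdr43 with -1.03 ± 0.12 and gnl3 with -1.00 ± 0.11, and then nop2, nop58, npm1a and wdr75 with changes of -0.86, -0.76, -0.75 and -0.73. The factors that rose were utp4 with 1.06 ± 0.20, bop1 with 0.83 ± 0.16 and mybbp1a with 0.74 ± 0.14. All 9 liver and all 8 eye markers were lower in C60D, with medians of -10.61 and -9.83 on the log2 scale, and their part in these changes was not tested. With the replicate number as a block, 3 rose and 6 fell, nop58 and wdr75 no longer passing (5.42% and 13.4% of all genes). DESeq2 called 3 higher and 8 lower (9.81% and 15.8%). With library size only, utp4 rose and 7 fell (2.49% and 19.4% of all genes), and bop1, mybbp1a and wdr75 no longer passed. Without C45D-3 the calls were 5, all lower (dkc1, gnl3, nop2, rrs1 and wdr43, against 10.5% of all genes lower and 2.61% higher), and in one fit of all 21 libraries there were 0. The share of all genes called in that one fit is not given here.

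The C60D libraries also enter the comparison at 60 dpf. There dkc1, nop2, rrs1, gnl3, npm1a, wdr43, nop58 and wdr75, which fell in C60D, had log2 fold changes of 2.47 ± 0.47, 1.76 ± 0.35, 2.87 ± 0.47, 1.17 ± 0.28, 1.54 ± 0.33, 1.88 ± 0.45, 1.53 ± 0.42 and 2.27 ± 0.61. The factors that rose in C60D, utp4, bop1 and mybbp1a, had 0.73 ± 0.54, 1.93 ± 0.65 and 0.86 ± 0.39, so the 2 sets overlapped. Since both comparisons share C60D, these values are not independent of each other.

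Among heat-treated fish no factor was called between T35D and T45D or between T45D and T60D (edgeR, 0 of 44 each, with a background of 0% of all genes). DESeq2 also called 0, where it called 0.116% of all genes higher and 0.101% lower in T45D and 0.0117% higher and 0.0272% lower in T60D. No factor had an unadjusted p of 0.05 or less, against 2.51% of all genes higher and 1.91% lower in T45D and 0.318% higher and 1.63% lower in T60D. The median log2 fold change was -0.45 and 0.44. The difference between heat effects at 2 ages was tested in one edgeR fit of 18 libraries, and 0 of 44 passed for any pair of ages, with backgrounds of 0% higher for each pair and 0%, 0.00450% and 0% lower. Without adjustment, 0 factors were higher at 45 than at 35 dpf (3.40% of all genes), 4 at 60 than at 35 dpf (7.35%) and 3 at 60 than at 45 dpf (11.6%), and 0 were lower (4.40%, 2.93% and 5.04%). The smallest p were those of rrs1 for 60 minus 45 dpf, with a difference of 2.36 ± 0.72 on the log2 scale (adjusted p = 0.123), and of gnl3 for 60 minus 35 dpf, with 1.55 ± 0.51 (adjusted p = 0.244).

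Other genes of the pathway gave counts of the same kind in the main fits with TMM scaling. For these lists no other scaling and no fit without a library was summarized, so how far their counts depend on these is not known. Of 15 genes of the RNA polymerase I machinery, 8, 6 and 12 were higher in heated fish at an unadjusted p of 0.05 or less at 35, 45 and 60 dpf, where 15.8%, 5.26% and 16.1% of all genes were, with median log2 fold changes of 1.71, 1.20 and 1.97. Other small subunit factors gave 23 and 26 of 38 and 29 of 37, with medians of 1.70, 1.34 and 1.58, other large subunit factors 27, 21 and 32 of 46, with 1.42, 1.05 and 1.34, and the RNA exosome, which trims precursors, 11, 5 and 13 of 14, with 2.12, 1.59 and 2.01. None of the genes in these 4 lists was lower at that p (8.33%, 10.5% and 9.53% of all genes), and none passed the adjusted test in edgeR. The 2 smallest p of each list at 35 dpf belonged to taf1b (2.13 ± 0.64) and polr1g (2.27 ± 0.69), to esf1 (2.01 ± 0.62) and nol7 (2.08 ± 0.66), to nvl (1.87 ± 0.58) and wdr18 (1.99 ± 0.64), and to exosc3 (2.96 ± 0.90) and mphosph6 (2.78 ± 0.85), given as log2 fold changes with their SE. At 45 dpf they were polr1g (1.78 ± 0.44) and polr1a (1.24 ± 0.37), krr1 (1.51 ± 0.39) and emg1 (1.51 ± 0.41), sdad1 (1.99 ± 0.43) and nmd3 (1.37 ± 0.31), and exosc9 (1.63 ± 0.64) and exosc10 (1.60 ± 0.65). At 60 dpf they were nolc1 (2.18 ± 0.47) and polr1h (3.28 ± 0.81), rrp8 (2.47 ± 0.58) and nol7 (2.63 ± 0.64), ppan (3.33 ± 0.66) and nifk (2.22 ± 0.46), and exosc6 (3.13 ± 0.62) and exosc4 (2.31 ± 0.57). The adjusted p of these genes ran from 0.145 to 0.311 (edgeR).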

How the data were processed

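Whole-body RNA of 21 samples was sequenced on the BGISEQ-500 in single-end reads. The authors filtered reads with SOAPnuke, aligned them to the coding genes of GRCz11 (Bowtie2 2.2.5) and derived each gene's expected count (RSEM 1.2.12). These deposited expected counts are not normalized, and 10.6% of them were not whole numbers. The authors also deposited FPKM values, scaled to gene length and library size, which were used only to compare levels between genes. The submitters' processing notes also name HISAT2 2.0.4 and DESeq2 1.4.5. RSEM divides reads among near-identical genes, so the level of a factor with a close paralog is less certain.

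Symbols were matched by gene number to the RefSeq gene list of assembly GRCz12tu for 24087 of 26225 genes, and all 44 factors were found. No column of a sample was left unused (0). Groups were taken from the sample titles. Expected counts were rounded, filtered with edgeR's filterByExpr, TMM-normalized and compared with edgeR 4.0.16 (glmQLFit and glmQLFTest, R 4.3.3) in fits of the 6 libraries compared, with Benjamini-Hochberg adjustment over all genes tested. Printed CPM values use the TMM factors of all 21 libraries, and log2 ratios of single libraries use CPM + 0.5. Shares of all genes that lay above all controls, or in an order within a group, were taken over genes with at least 10 counts in at least 3 of the 6 libraries. The procedure was tested on simulated data with a small spread, the same in all libraries. The heated groups had a wider one, so this test does not show how the procedure performs on them. Replicate libraries differed by more than sampling noise. The labels call them biological replicates, and intervals between them include any technical spread.

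The replicate numbers were checked for pairing by the correlation of same-numbered libraries after the group means were removed. Each of the 3 pairs exceeded 0.1 only for C35D with C25D (mean 0.194, lowest 0.123) and C60D with C45D (mean 0.255, lowest 0.206). The labels state no pairing, and the main fits of both comparisons had no block. A fit with the replicate number as a block was run as an alternative. At 35, 45 and 60 dpf the mean between heated and control libraries was -0.0158, -0.116 and -0.158.

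Alternatives were DESeq2 1.42.0, its size factors in edgeR, scaling by library size only, dropping the count filter, requiring 10 counts in each library, a replicate block, one fit of 21 libraries and leaving out each library. The genes given in full are 27 lead members taken by role, the 3 smallest and 3 largest p of each heat comparison, those called, and those against the common direction. From the other pathway lists, the 2 smallest p per list and age are named. Members and lists were chosen with earlier results of these data known, so counts over them are descriptions.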

Additional observations from a re-analysis of the deposited data

How the results depend on the processing

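The counts of factors passing the adjusted test stayed within 1.5 times of the main count in 143 refits of the 11 comparisons and moved further in 12. The main count was 0 in all comparisons but C60D against C45D, so most of the 143 set 0 against 0, which does not measure stability. With DESeq2 the counts were 1, 7 and 22 at 35, 45 and 60 dpf, 1 for C35D against C25D and 2 for C45D against C35D, where edgeR gave 0 each. One fit of all 21 libraries gave 20 at 60 dpf (8.68% of all genes higher and 5.37% lower) and 0 for C60D against C45D, where the main count was 11. The share of all genes beside that 0 is not given here. Leaving out each library in turn gave counts from 0 to 35 at 35 dpf, 0 to 5 at 45 dpf and 0 to 39 at 60 dpf. The range was 0 to 1 for C35D against C25D and 5 to 12 for C60D against C45D. The 35 came without T35D-1, where 18.9% of all genes were called higher and 12.9% lower. Without T45D-2 there were 5 (1.19% and 6.79%), and without T60D-1 there were 39 (20.0% and 12.1%). Without C35D-2 there was 1 (7.48% and 8.14%), and for C60D against C45D there were 5 without C45D-3 (2.61% and 10.5%). In the main fits at 35, 45 and 60 dpf these shares were 0%, so calls over all genes moved as well. The share beside the 12 is not given here. For C45D against C35D, for both comparisons among heated groups and for the 3 differences between heat effects, the range was 0 to 0.

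Without adjustment, leaving out a library moved the counts from 0 to 38 at 35 dpf, from 9 to 38 at 45 dpf and from 19 to 42 at 60 dpf, and over these refits the share of all genes ran from 2.69% to 24.8%, 0.963% to 14.1% and 8.12% to 25.3%. Library size only gave 4 at 35 dpf (8.45% of all genes), 1 at 45 dpf (0.507%) and 37 at 60 dpf (19.3%) in place of 20, 26 and 36. The median log2 fold change of the factors stayed above 0 at the 3 ages under every alternative run, and over the fits without 1 library it ran from 1.14 to 1.64, 0.63 to 1.57 and 1.33 to 1.78. The cause of these shifts was not tested.

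With the replicate number as a block, edgeR again called 0 factors at 35, 45 and 60 dpf, with 3, 14 and 27 at an unadjusted p of 0.05 or less in place of 20, 26 and 36 (7.12%, 1.25% and 9.07% of all genes). For the 2 comparisons with all pairs above 0.1, the block gave 0 for C35D against C25D and 9 for C60D against C45D. The block changed no other call. Same-numbered libraries correlated best with each other in 1, 1 and 0 of 3 pairs at 35, 45 and 60 dpf. With 3 pairs per age and a wide spread among heated libraries, this cannot decide whether libraries were paired. The labels state no pairing.

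All factors but utp18 had at least 10 counts in all libraries, and the part of depth in the results was not tested. For utp18, at 0.347 to 3.85 CPM, counting error adds to the spread between replicates.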
